A study of Mus musculus with 14 samples.

Results

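The question was whether inhibition of ACSS2 changed tumour gene expression by different amounts in 2 mouse hosts. All 14 libraries of the series were used. Each held RNA of bulk mouse tumour tissue, read at the 3' end of polyadenylated RNA with a QuantSeq library. The host strains were written NGS mouse and C57BI/6 mouse, and each strain had a vehicle group and an ACSS2i group, with 3 libraries per group in NGS and 4 per group in C57BI6. The measure was the interaction, that is the effect of ACSS2i against vehicle in C57BI6 minus the same effect in NGS, as a log2 value. A positive interaction means a higher or less negative effect in C57BI6, and a negative one a higher or less negative effect in NGS. The sources used here do not state what NGS stands for, which tumour line was grown, or how much inhibitor was given and for how long. A design line names Bmal1 status, which no label assigns to a library. Nothing in the labels says that libraries came from separate animals, so p-values measure the spread between these libraries, which may be technical.

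ACSS2 joins acetate to coenzyme A and so supplies acetyl-CoA for lipid synthesis and for acetylation of histones. Interferons bind receptors on nearly every cell type and switch on antiviral genes and the machinery that shows peptides on class I molecules to T cells. The hypoxia response acts through HIF factors, which raise glucose uptake, glycolysis and mitophagy genes when oxygen is short. In bulk tumour RNA, fewer cells of a type and less RNA per cell cannot be told apart.

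The strains differed in depth and in some tissue content. Library totals were 2.85 to 4.7 M counts in NGS and 17.6 to 20.3 M in C57BI6, so depth and strain cannot be told apart. NGS ACSS2i replicate 2 was the shallowest library and stood apart on the second principal component. Summed skeletal muscle genes, given in CPM, the count scaled for library depth, reached 15440 in NGS vehicle 2, 7618 in NGS vehicle 3 and 6803 in C57BI6 ACSS2i 3, against 753 to 2875 in the other 11 libraries. Skin genes were highest in replicate 1 of both NGS groups, at 1932 CPM in vehicle and 882 CPM in ACSS2i. Their part in the results was not tested beyond refits without the libraries concerned. The refit without the 3 muscle-rich libraries keeps 1 NGS vehicle library, replicate 1, the one with the high skin sum.

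Promoter sequences of 3 hypoxia genes are shown because most of that group had lower levels with ACSS2i in NGS and the letters can be searched for the short core of the hypoxia response element, ACGTG. They are the 250 bases before the start site in the RefSeq table of GRCm38.p6, written 5′ to 3′ on the strand of the gene, with the core in capitals. Both strands were searched. Bnip3 (chr7:138909507-138909756, minus strand) has a palindromic site that matches on both strands with overlap, 108 bases before the start. Slc2a1 (chr4:119108495-119108744, plus strand) has 1 match, 36 bases before the start. Egln3 (chr12:54203875-54204124, minus strand), which encodes an oxygen-sensing hydroxylase, has 1 match, 229 bases before the start.
Bnip3: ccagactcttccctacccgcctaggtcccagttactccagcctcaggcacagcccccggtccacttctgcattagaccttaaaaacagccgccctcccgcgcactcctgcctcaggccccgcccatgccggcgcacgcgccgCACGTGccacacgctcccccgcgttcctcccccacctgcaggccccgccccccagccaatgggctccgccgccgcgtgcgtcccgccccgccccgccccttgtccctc
Slc2a1: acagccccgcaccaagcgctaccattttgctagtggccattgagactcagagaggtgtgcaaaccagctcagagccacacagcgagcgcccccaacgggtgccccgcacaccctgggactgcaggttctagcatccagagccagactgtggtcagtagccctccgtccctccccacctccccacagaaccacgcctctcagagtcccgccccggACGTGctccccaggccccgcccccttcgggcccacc
Egln3: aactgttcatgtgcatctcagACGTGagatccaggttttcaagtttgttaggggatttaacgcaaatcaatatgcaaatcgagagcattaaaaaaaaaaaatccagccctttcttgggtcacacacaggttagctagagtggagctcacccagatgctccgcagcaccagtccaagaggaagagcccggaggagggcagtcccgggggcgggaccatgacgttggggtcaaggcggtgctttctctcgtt

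Of the 17294 genes tested, 11497 had an entry in the promoter table, and 2402 of these held the core (20.9%). It was found in 9 of 17 hypoxia genes with an entry (52.9%) and in 7 of 17 glycolysis genes (41.2%). Other lists also lay above the share of all promoters, such as 3 of 4 B and plasma cell genes, 6 of 15 immediate early genes (40.0%) and 5 of 13 acetyl-CoA supply genes (38.5%). None of the 19 genes with an entry that passed in both strains held it. Each match describes letters in the window and not a bound site.

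Few single genes passed the test of a difference between the hosts. With edgeR's quasi-likelihood test and Benjamini-Hochberg adjustment, 3 of 17294 genes passed an adjusted p under 0.05 for the interaction (0.0173%), all with a positive value: Pfn2, Serpinb1a and the pseudogene Amd-ps3. No gene passed with a negative value. At an unadjusted p under 0.05 there were 1307 positive genes (7.56%) and 1076 negative genes (6.22%). The effects themselves passed for 54 genes in C57BI6 (0.312%) and 466 in NGS (2.69%). These counts do not compare the strains, since a call in 1 strain alone is no test of a difference. The median interaction over all genes was 0.02, with quartiles of -0.28 and 0.42. Of the genes with counts in both NGS groups, 51.6% had a positive value.

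**Figure D1:**
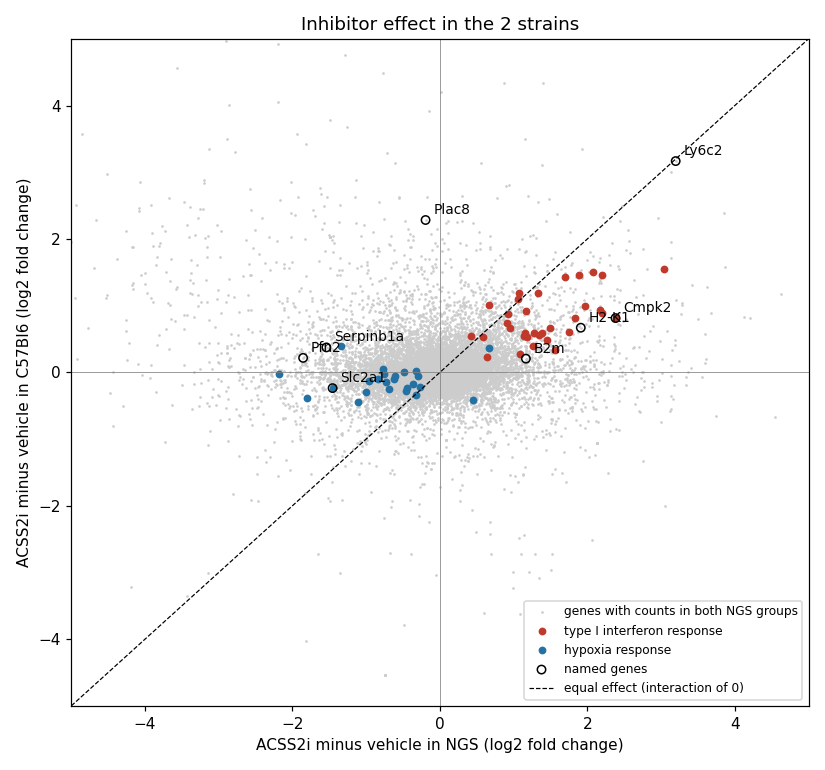
Effect of ACSS2i against vehicle in NGS (horizontal axis) and in C57BI6 (vertical axis), as log2 fold changes, for the 16327 genes with counts in both NGS groups; 23 genes lie outside the axes. Type I interferon genes (red) lie mostly below the dashed line of equal effect, with larger values in NGS, and hypoxia genes (blue) lie mostly above it, with negative values in NGS.

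Pfn2 encodes profilin 2, an actin-binding protein (ENSMUSG00000027805, chromosome 3, 57841895 to 57848079 on mm10, protein-coding). It stood at 14.6, 18.6 and 13.7 CPM in NGS vehicle and at 3.48, 4.61 and 4.83 CPM in NGS ACSS2i. In C57BI6 it stood at 4.58, 3.86, 3.03 and 4.29 CPM in vehicle and 4.30, 4.17, 5.46 and 4.41 CPM in ACSS2i. The NGS groups did not overlap, while the C57BI6 groups did, and NGS vehicle was the only group with a high level. The effect was -1.86 in NGS and 0.22 in C57BI6, an interaction of 2.07 ± 0.30 (SE, edgeR adjusted p = 0.0394).

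Serpinb1a encodes an inhibitor of neutrophil proteases (ENSMUSG00000044734, chromosome 13, 32842092 to 32851185, protein-coding). Its NGS vehicle libraries were at 40.3, 42.0 and 40.3 CPM and its NGS ACSS2i libraries at 17.1, 11.5 and 13.3 CPM. In C57BI6 it was at 18.8, 22.6, 17.1 and 17.3 CPM in vehicle and 20.9, 24.4, 34.3 and 18.6 CPM in ACSS2i. As for Pfn2, the treated NGS libraries were all below the vehicle libraries and the C57BI6 groups overlapped. The interaction was 1.91 ± 0.28 (SE, edgeR adjusted p = 0.0394), from -1.54 in NGS and 0.37 in C57BI6. Summing it with the related genes Serpinb1b and Serpinb1c, a step chosen after the values were seen, left an interaction of 1.85 (edgeR adjusted p = 0.0432). Both of those genes held 0 to 3 counts in each NGS library, so the sum could change little.

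Amd-ps3 is a processed pseudogene of the adenosylmethionine decarboxylase gene Amd1, so its reads may belong to the parent. It had 455, 464 and 204 counts in NGS vehicle, 0, 0 and 4 in NGS ACSS2i, and 956 to 2187 in the 8 C57BI6 libraries. Its interaction was 7.62 ± 0.74 (SE, edgeR adjusted p = 0.000722). In NGS, Amd1 had 990, 644 and 756 counts in vehicle and 958, 835 and 957 in ACSS2i, and Amd2 had 562, 300 and 342 against 194, 0 and 127. Summed over Amd1, Amd2 and Amd-ps3 the interaction was 0.21 ± 0.22 (SE, edgeR adjusted p = 0.718). That summing, chosen after the values were seen, left 0 genes past the threshold in edgeR, with Pfn2 and Serpinb1a each at an adjusted p of 0.0627 and 2395 genes at an unadjusted p under 0.05. Among other alternatives, limma voom gave 0 genes (1924 and 1684 unadjusted with library and strain weights). The DESeq2 test gave 283 (2.04% of genes with an adjusted p), with 133 positive and 150 negative, the 3 edgeR genes among them.

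Single libraries moved the count. Without NGS ACSS2i 1 it was 62. It was 1, Amd-ps3 alone, without NGS vehicle 3, NGS ACSS2i 2 or 3, C57BI6 vehicle 1, 3 or 4, or C57BI6 ACSS2i 1 or 2. Without NGS vehicle 2 the count was 2. Pfn2 passed in 1 of 14 such refits, the one without NGS ACSS2i 1, and reached an adjusted p of 0.158 in the others. Serpinb1a passed in 4 of 14, those without NGS ACSS2i 1, C57BI6 vehicle 2 and C57BI6 ACSS2i 3 or 4, and reached 0.16 (edgeR adjusted p). Both interactions stayed positive in all 14. Without the 3 muscle-rich libraries the adjusted p was 0.236 for Pfn2 and 0.175 for Serpinb1a (edgeR). With C57BI6 thinned to the mean NGS depth, Serpinb1a and Amd-ps3 passed and Pfn2 did not.

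**Figure D2:**
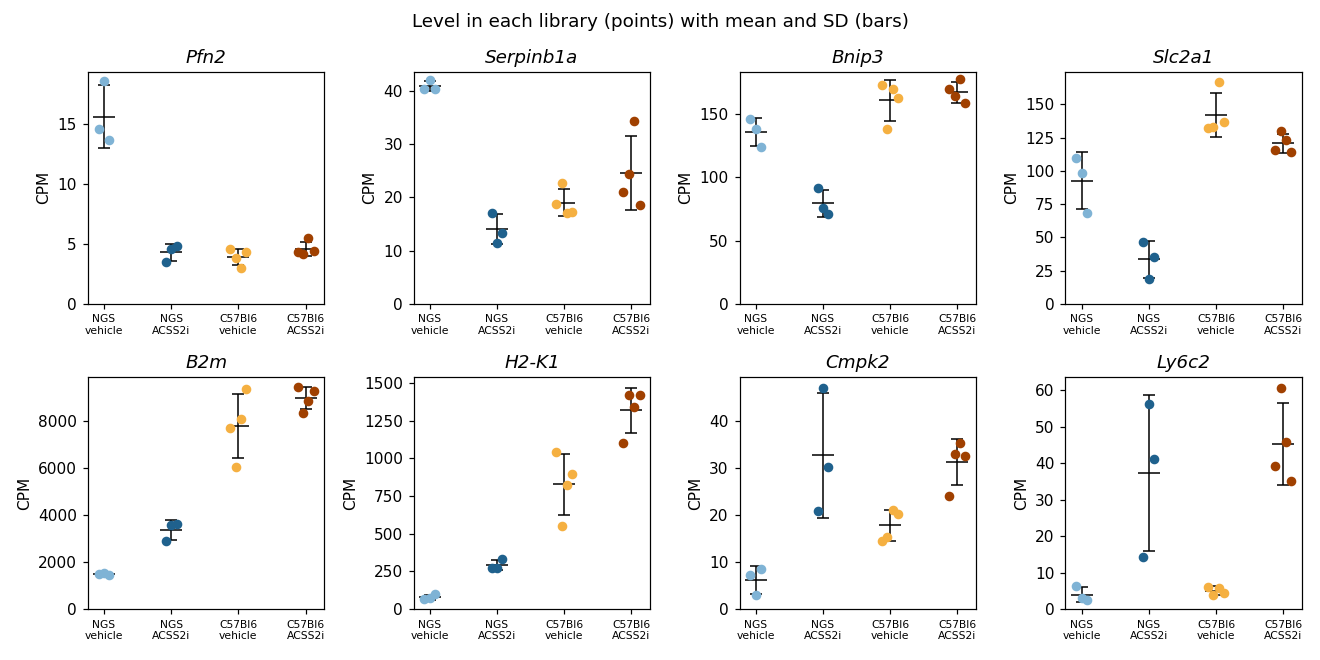
Level in CPM of 8 genes in each library (points), by group, with the mean and SD (bars). Pfn2, Serpinb1a, Bnip3 and Slc2a1 are lower in every NGS ACSS2i library than in any NGS vehicle library, B2m, H2-K1 and Cmpk2 are higher, and Ly6c2 is higher with ACSS2i in both strains.

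No host difference was detectable in the RNA of the drug target. Acss2 was low, at 4.65, 1.79 and 3.19 CPM in NGS vehicle and 5.35, 3.29 and 1.84 CPM in NGS ACSS2i. In C57BI6 it was at 2.74, 3.02, 2.51 and 2.23 CPM in vehicle and 1.98, 2.58, 3.12 and 3.62 CPM in ACSS2i, and the groups overlapped in both strains. An inhibitor of the enzyme need not change its RNA. The interaction was 0.00 with an approximate 95% interval of -1.04 to 1.04, so a difference of up to about that size could be missed. The mitochondrial acetate enzymes Acss1 and Acss3 were at -0.03 and -0.01. Of the 17 genes for acetate use and acetyl-CoA supply, 0 passed the adjusted threshold, 4 were positive (23.5%, against 7.56% of all genes) and 0 negative at an unadjusted p under 0.05, and the median was 0.01. That median was 0.33 without NGS ACSS2i 1 and -0.02 without NGS ACSS2i 3. The pyruvate carrier gene Mpc1 (0.69) and the ketone-body enzyme Acat1 (0.53) were 2 of the 4.

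Interferon genes had the lowest median interaction of the lists with 5 or more measured members. Of 33 tested genes of the type I interferon list, 29 had a negative interaction and 16 were negative at an unadjusted p under 0.05 (48.5%, against 6.22% of all genes), while 0 were positive at that level. The median was -0.66, from a median effect of 1.33 in NGS and 0.74 in C57BI6. None passed the adjusted threshold in edgeR. In DESeq2, where 2.04% of genes with an adjusted p passed, 5 of 33 did, namely Cmpk2, Ifi44, Ifit3, Rtp4 and Zbp1. The list was chosen with earlier results known. Its median ranged from -0.83 to -0.53 over 24 alternatives. It was -0.66 without the 3 muscle-rich libraries, a refit that keeps only 1 NGS vehicle library.

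Cmpk2, a mitochondrial nucleotide kinase induced by interferon (ENSMUSG00000020638, chromosome 12, 26469204 to 26479837), was at 7.28, 2.92 and 8.43 CPM in NGS vehicle and 20.9, 47.1 and 30.2 CPM in NGS ACSS2i. In C57BI6 it was at 14.5, 15.4, 21.1 and 20.2 CPM in vehicle and 24.1, 33.0, 35.4 and 32.6 CPM in ACSS2i. Neither pair of groups overlapped, and the treated levels of the strains did. The interaction was -1.57 ± 0.42 (SE, edgeR adjusted p = 0.205), from 2.38 in NGS and 0.81 in C57BI6.

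Rtp4, a chaperone of receptors that is induced by interferon, went from 33.6, 31.9 and 31.7 CPM in NGS vehicle to 62.3, 113 and 91.4 CPM in NGS ACSS2i. It was at 49.0, 49.8, 64.9 and 56.1 CPM in C57BI6 vehicle and 62.6, 84.4, 85.0 and 74.4 CPM in C57BI6 ACSS2i. The C57BI6 groups overlapped in this gene. The interaction was -0.98 ± 0.25 (SE, edgeR adjusted p = 0.197). Zbp1, a sensor of left-handed nucleic acids, was at -0.78, and Bst2, the tether that holds budding viruses, at -0.80. Isg15, a ubiquitin-like protein, was at -0.06, so members of the list did not all behave alike.

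Genes induced by interferon gamma had a median of -0.39, with 26 of 33 negative. The median was -0.59 without NGS ACSS2i 1 and -0.19 without C57BI6 vehicle 1. At an unadjusted p under 0.05, 6 were negative (18.2%, against 6.22% of all genes) and 3 positive (9.09%, against 7.56%). Gbp3, a guanylate-binding protein that acts against intracellular pathogens, was at -1.06, and Cxcl10, a chemokine for activated T cells, at -0.81. Ciita, the master activator of class II genes, was at 2.42, from 1.82, 3.59 and 1.82 CPM in NGS vehicle and 1.07, 0.659 and 0.460 CPM in NGS ACSS2i. Of the 12 measured class II genes, 10 were positive, with a median of 0.66. H2-Aa, a class II chain, was at 1.55, and Ifi30, a thiol reductase of antigen processing, at 0.65. No gene of the gamma and class II lists passed the adjusted threshold in edgeR or DESeq2.

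Class I presentation was mixed. B2m, the invariant chain of class I molecules (ENSMUSG00000060802, chromosome 2, 122147686 to 122153083), was at 1500, 1550 and 1450 CPM in NGS vehicle and 2890, 3570 and 3640 CPM in NGS ACSS2i. In C57BI6 it was at 7700, 6040, 8100 and 9350 CPM in vehicle and 9440, 8360, 8880 and 9290 CPM in ACSS2i. NGS vehicle was lowest, NGS ACSS2i lay between it and C57BI6, and the C57BI6 groups overlapped. B2m rose in NGS, by 1.17, and was at 0.21 in C57BI6. The interaction of -0.96 ± 0.17 (SE) did not pass in the 17294-gene edgeR test (adjusted p = 0.115) and passed in edgeR without C57BI6 vehicle 2 (0.0185), without NGS ACSS2i 1 (0.035) and with no filter on low counts (0.039). It also passed in DESeq2 (adjusted p = 0.000223).

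H2-K1, a classical class I heavy chain, was at 63.7, 72.0 and 97.8 CPM in NGS vehicle and at 270, 273 and 334 CPM in NGS ACSS2i. In C57BI6 it was at 1040, 554, 827 and 896 CPM in vehicle and 1100, 1420, 1340 and 1420 CPM in ACSS2i. Neither pair overlapped, and every C57BI6 library was above every NGS library. The interaction was -1.24 ± 0.27 (SE, edgeR adjusted p = 0.146). The H2 genes hold near-identical copies among which reads may be split, so their levels are uncertain. H2-M3, which presents formylated peptides, was at 1.24. Over the 25 genes of the list the median was -0.24, with 15 negative and 10 positive. At an unadjusted p under 0.05, 7 were negative (28%, against 6.22% of all genes) and 2 positive (8%, against 7.56%). The median was -0.35 without the 3 muscle-rich libraries (1 NGS vehicle library kept) and -0.095 without NGS ACSS2i 2.

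Hypoxia genes had mostly positive interactions. Of 24 genes, 21 were positive, 11 of them at an unadjusted p under 0.05 (45.8%, against 7.56% of all genes), and 1 negative gene, the stress regulator Ddit4, was at that level with -0.86. The median was 0.53, from -0.66 in NGS and -0.14 in C57BI6. It ranged from 0.36 to 0.88 over 24 alternatives, with the lowest value without NGS ACSS2i 2 and the highest without NGS ACSS2i 1. It was 0.56 without the 3 muscle-rich libraries (1 NGS vehicle library kept). None passed the adjusted threshold in edgeR. In DESeq2 2 of 24 did, Bnip3 and Slc2a1, against 2.04% of genes with an adjusted p.

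Bnip3, a mitophagy receptor (ENSMUSG00000078566, chromosome 7, 138890836 to 138909519), was at 146, 138 and 124 CPM in NGS vehicle and 91.7, 75.8 and 70.7 CPM in NGS ACSS2i. In C57BI6 it was at 173, 138, 170 and 163 CPM in vehicle and 170, 164, 178 and 159 CPM in ACSS2i. It fell by 0.78 in NGS and was at 0.06 in C57BI6, where the groups overlapped. The interaction was 0.83 ± 0.16 (SE, edgeR adjusted p = 0.115).

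Slc2a1 encodes the glucose transporter GLUT1 (ENSMUSG00000028645, chromosome 4, 119108711 to 119137983). It was at 110, 98.7 and 68.6 CPM in NGS vehicle and 46.3, 18.8 and 35.4 CPM in NGS ACSS2i. The values were 132, 133, 167 and 137 CPM in C57BI6 vehicle and 116, 130, 123 and 114 CPM in C57BI6 ACSS2i. Neither pair overlapped. The effect was -1.46 in NGS, where it passed, and -0.24 in C57BI6, where it did not. The interaction was 1.22 ± 0.31 (SE, edgeR adjusted p = 0.197). Ndrg1, a stress-response gene of hypoxia, was at 0.73, the vasodilator peptide gene Adm at 2.16 and the carbonic anhydrase gene Car9 at 1.42. Egln3 was at 0.44.

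Glycolysis genes, which share Slc2a1 and the lactate exporter Slc16a3 (0.85) with other lists, had a median of 0.36, with 14 of 18 positive and 2 at an unadjusted p under 0.05 (11.1%, against 7.56% of all genes). The median was 0.20 without the 3 muscle-rich libraries (1 NGS vehicle library kept). Ldha, which makes lactate, was at 0.34. Respiratory chain genes had a median of -0.03, with 7 positive (16.7%, against 7.56%) and 6 negative (14.3%, against 6.22%) of 42 at an unadjusted p under 0.05. Cox7c, a subunit of cytochrome c oxidase, was at 174, 131 and 186 CPM in NGS vehicle and 38.5, 18.1 and 47.2 CPM in NGS ACSS2i, with an interaction of 2.05. Slc25a4, the ADP/ATP carrier, was at 0.60.

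Lipid genes went both ways. Fatty acid synthesis genes had a median of 0.03, with 3 positive and 3 negative of 23 at an unadjusted p under 0.05 (13% each, against 7.56% and 6.22% of all genes). Those with the smallest p were the phosphatidate phosphatase Lpin1 at 1.41, the acyltransferase Agpat2 at -0.57 and the sterol regulatory factor Srebf1 at 1.27. Of 24 cholesterol synthesis genes, with a median of 0.01, the sterol reductase Tm7sf2, at -1.76, was the only one at that level (4.17% negative, against 6.22%). Lpin1 (1 of 23) and Tm7sf2 (1 of 24) passed the adjusted threshold in DESeq2, against 2.04% of genes with an adjusted p, and not in edgeR. Fatty acid oxidation had a median of -0.05, with 6 of 21 negative (28.6%, against 6.22%) and 1 positive (4.76%, against 7.56%) at an unadjusted p under 0.05. Among the negative ones were Acads (-0.94), Echs1 (-0.57) and Cpt1a (-0.75), enzymes of that pathway. Acads (1 of 21) also passed in DESeq2 and not in edgeR.

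**Figure D3:**
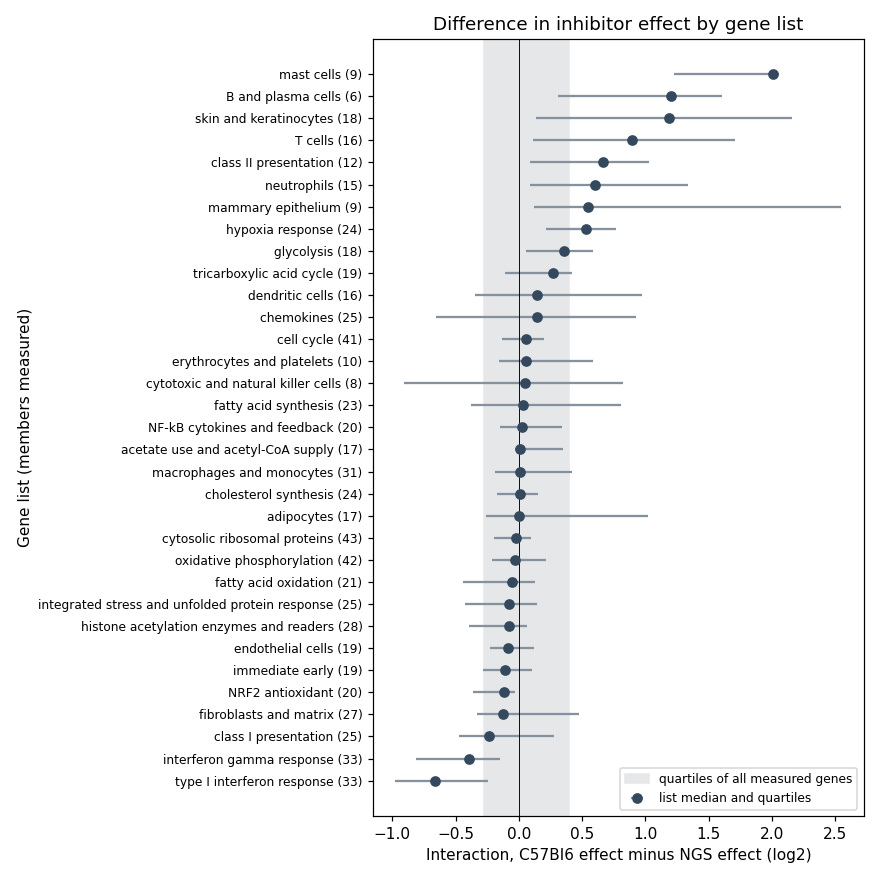
Median and quartiles of the interaction (log2) for each gene list with 5 or more measured members, with the quartiles of all measured genes in grey; the skeletal muscle list, at 5.51, is left out. Type I interferon genes have the lowest median, -0.66, and mast cell genes the highest, 2.01.

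Among stress genes, Slc7a11, the cystine importer, was at -1.83, the chaperone Pdia4 at -1.14 and the cytokine Gdf15 at -1.45. Their parts differed. Slc7a11 and Pdia4 had effects of 1.72 and 1.32 in NGS and of -0.11 and 0.19 in C57BI6. Gdf15 had an effect of -0.26 in NGS and -1.71 in C57BI6. The stress and unfolded protein list had 5 negative (20%, against 6.22% of all genes) and 1 positive (4%, against 7.56%) of 25 at an unadjusted p under 0.05. The NRF2 antioxidant list had 5 negative (25%) and 1 positive (5%) of 20. Their medians were -0.08 and -0.12. Cell cycle genes had a median of 0.06, with 1 of 41 in each direction at that level (2.44%, below both shares of all genes).

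Of the genes picked by smallest p, Isg20, an interferon-induced exonuclease, had a positive interaction. It was at 14.6, 17.7 and 22.6 CPM in NGS vehicle and 9.63, 9.56 and 10.4 CPM in NGS ACSS2i, and at 38.5, 32.1, 35.5 and 32.8 CPM in C57BI6 vehicle and 43.7, 49.6, 43.3 and 43.2 CPM in C57BI6 ACSS2i. The treated libraries were all below vehicle in NGS and all above it in C57BI6. The interaction was 1.26 ± 0.20 (SE, edgeR adjusted p = 0.0764).

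Plac8, a gene of monocytes and plasmacytoid dendritic cells, was at 22.9, 27.1 and 37.2 CPM in NGS vehicle and 26.2, 14.5 and 34.5 CPM in NGS ACSS2i. It was at 11.8, 6.60, 8.06 and 5.19 CPM in C57BI6 vehicle and 32.4, 51.2, 44.0 and 26.8 CPM in C57BI6 ACSS2i. It rose in C57BI6, by 2.28, and its NGS groups overlapped. The interaction was 2.48 ± 0.45 (SE, edgeR adjusted p = 0.115). Negative values by smallest p after B2m were those of Zgpat, a transcriptional repressor (-1.47), Ccnd2, a cyclin of G1 (-0.83), Fbxw5, a ubiquitin ligase subunit (-0.85), and Wnt5a, a Wnt ligand (-0.74).

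In all, 22 genes passed in the same direction in both strains, 21 higher and 1, the haem oxygenase gene Hmox1, lower, and 0 passed in opposite directions. They were chosen by passing in both strains, so their agreement in direction is not a result. That choice also limits the sign and size of their interactions, which are given as description only. Of their interactions, 17 were negative, from -0.98 to 0.30, and 21 of the 22 95% intervals spanned 0. Only Ifi44, an interferon-induced gene, had an interval that did not (-1.58 to -0.38). Of the 22, 6 were in the type I interferon list, which holds 33 of the 17294 genes tested. The count was 2 without the 3 muscle-rich libraries and 52 without NGS ACSS2i 1.

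Ly6c2, a surface protein of inflammatory monocytes, was at 6.27, 3.14 and 2.51 CPM in NGS vehicle and 14.2, 56.3 and 41.2 CPM in NGS ACSS2i. It was at 6.14, 3.75, 5.89 and 4.29 CPM in C57BI6 vehicle and 39.2, 60.6, 45.7 and 35.2 CPM in C57BI6 ACSS2i. The levels of the strains overlapped in both treatments. The interaction was -0.03, with an approximate 95% interval of -1.23 to 1.17 that allows a difference of more than 2-fold either way. Ms4a4c, a membrane protein of immune cells, was at -0.39 (-1.13 to 0.35), Ccl5, a chemokine of T and natural killer cells, at -0.60 (-1.50 to 0.29), and the antiviral gene Mx1 at -0.56 (-1.41 to 0.28).

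**Figure D4:**
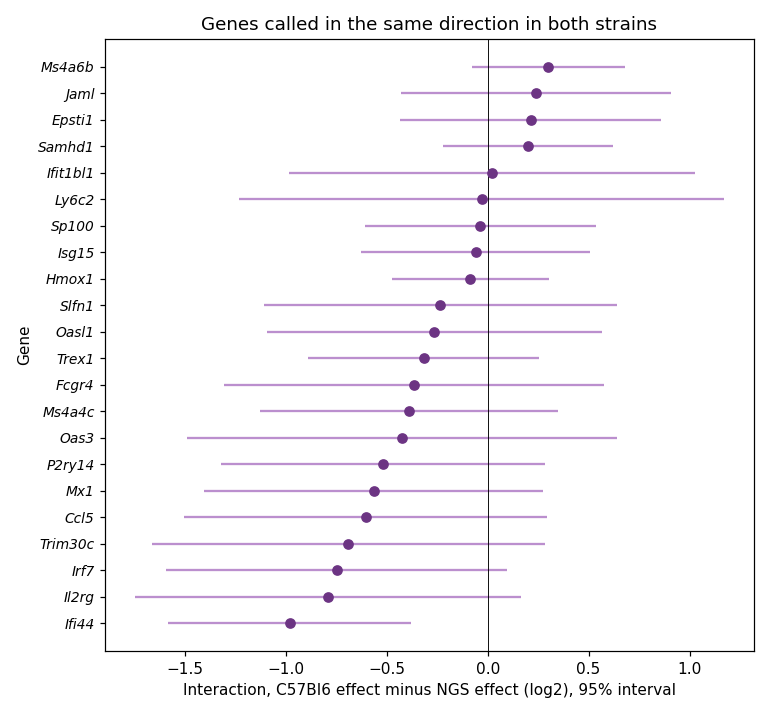
Interaction (log2, horizontal axis) with its 95% interval for the 22 genes that passed in the same direction in both strains. Values run from -0.98 (Ifi44) to 0.30 (Ms4a6b), and 21 of the 22 intervals span 0.

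For many lymphocyte genes no interaction can be given, because the NGS libraries held no counts. Of the tested genes, 496 (2.87%), 173 of them protein-coding, had 0 counts in all 6 NGS libraries. A count of 0 allows up to 3 counts over a group, or 0.218 CPM in NGS vehicle and 0.27 CPM in NGS ACSS2i, which covers counting error only. A further 174 genes were at 0 in NGS vehicle alone and 297 in NGS ACSS2i alone. Of the 24 cytotoxic and natural killer genes, 13 were at 0 in NGS, among them the granzymes Gzma, Gzmb, Gzmc and Gzmk, and the receptor genes Ncr1 and Klrb1c. Of 32 T cell genes, 11 were at 0, among them the T cell receptor subunits Cd3e and Cd3g, the kinase Zap70 and the regulatory factor Foxp3. Of 18 B and plasma cell genes, 5 were at 0, among them Cd79a, a signalling chain of the B cell receptor. These counts are over all members in the table. Among the members that were tested, and so on the same genes as the 2.87%, 11 of 22 cytotoxic, 9 of 30 T cell and 1 of 9 B and plasma cell genes were at 0.

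In C57BI6 these genes were low but present. Gzmb, a killer protease, was at 1.45, 1.79, 1.66 and 2.17 CPM in vehicle and 6.84, 5.61, 12.5 and 7.68 CPM in ACSS2i. Cd3e was at 1.17, 0.28, 0.972 and 0.845 CPM in vehicle and 2.71, 4.76, 1.45 and 2.33 CPM in ACSS2i. Every one of these C57BI6 values was above the NGS floors. Gzmc was at 14.9, 14, 17 and 18.5 CPM in C57BI6 vehicle and 32.0, 33.9, 81.3 and 51.2 CPM in ACSS2i. Among the 496 genes, 2 passed in C57BI6, against 54 of all 17294 (0.312%). They were Gzmb and Gzmc (2.20 and 1.62, edgeR adjusted p = 0.019 and 0.0429). The 496 genes passed the filter on low counts through their C57BI6 counts alone. No such effect could be measured in NGS.

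**Figure D5:**
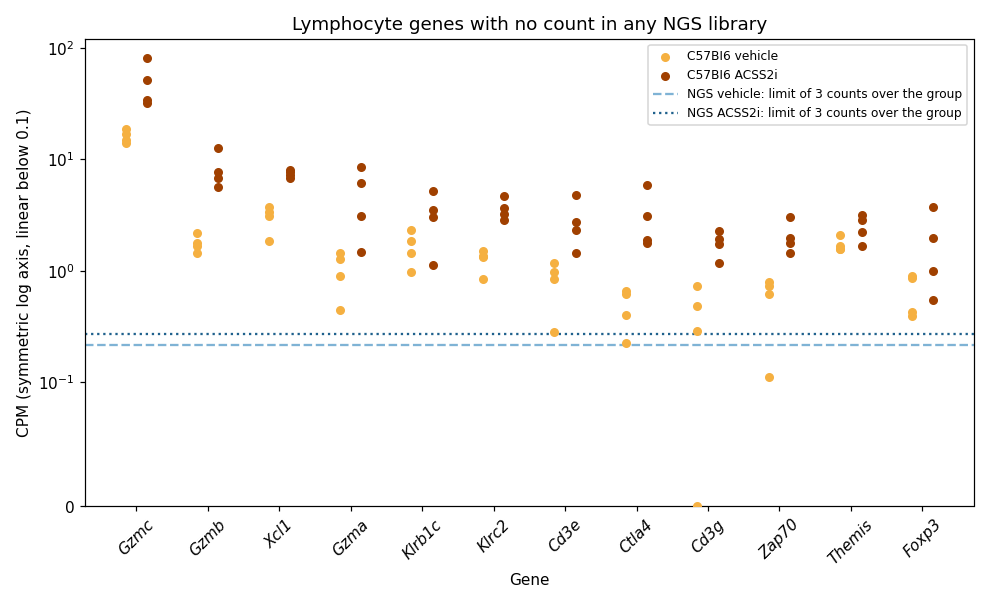
Level in CPM of 12 lymphocyte genes with no count in any NGS library, in each C57BI6 library (points; symmetric log axis), with the level that 3 counts over each NGS group would give (lines, 0.218 and 0.27 CPM). The 3 genes at the left, Gzmc, Gzmb and Xcl1, lie above both lines in all 8 libraries, and Cd3g and Zap70 fall below both in 1 vehicle library each.

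Of the 30 tested T cell genes, 5 were positive (16.7%, against 7.56% of all genes) and 0 negative at an unadjusted p under 0.05. The 30 include 9 genes at 0 in all NGS libraries and 5 at 0 in 1 NGS group, where a fitted value is no measurement. Among the positive genes was Trbc1, with 3 counts over NGS vehicle and 0 over NGS ACSS2i. T cell genes with counts in both NGS groups had positive values in 13 of 16, against 51.6% of all such genes, with a median of 0.90. The median was positive in all 24 alternatives and ranged from 0.27, without NGS ACSS2i 3, to 1.44, with limma voom and library weights. Thy1, also a gene of fibroblasts, was at 47.8, 39.9 and 65.4 CPM in NGS vehicle and 30, 16.5 and 16.8 CPM in NGS ACSS2i, with an interaction of 1.95. Trbc2, a T cell receptor constant chain, was at 5.92, 1.85, 3.89 and 5.37 CPM in C57BI6 vehicle and 13.6, 21.7, 9.24 and 15.8 CPM in ACSS2i, and at 0 to 2.43 CPM in NGS. Of these T cell genes none passed the adjusted threshold in edgeR, and Thy1 passed in DESeq2 (adjusted p = 0.00125) and in edgeR without NGS ACSS2i 1 (0.0368). The 8 cytotoxic and natural killer genes measured in both NGS groups split evenly, 4 positive and 4 negative, with a median of 0.05 that changed sign in 13 of 24 alternatives.

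Macrophage and monocyte genes had a median of 0.01, with 16 positive and 15 negative of 31. At an unadjusted p under 0.05, 6 were positive (19.4%, against 7.56% of all genes) and 0 negative (against 6.22%). None passed the adjusted threshold in edgeR. Of chemokines, Ccl8, which draws monocytes, was at 2.69, and Ccl4, which draws T cells and monocytes, at -2.74. Ccl8 was at 193, 189 and 273 CPM in NGS vehicle and 92.3, 102 and 105 CPM in NGS ACSS2i, and at 33.2, 7.10, 40.5 and 30.5 CPM in C57BI6 vehicle and 60.7, 138, 76.7 and 53.6 CPM in C57BI6 ACSS2i. Its treated libraries were all below vehicle in NGS and all above it in C57BI6, and neither effect passed the adjusted threshold. Csf3r, the receptor for the neutrophil growth factor, was at 3.29, from 2.23, 1.12 and 1.60 CPM in NGS vehicle and 0.535, 0 and 0 CPM in NGS ACSS2i. These are 23 and 2 counts. Of 15 neutrophil genes measured in both NGS groups, 11 were positive and 4 negative. Their median was 0.61, and -0.27 without NGS vehicle 1. Summed neutrophil genes were at 87.3 to 315 CPM in NGS vehicle and 107 to 205 CPM in NGS ACSS2i.

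Skeletal muscle genes had the highest interaction of any list and followed single libraries. Of 23 genes all were positive, with a median of 5.51. Myh2, a myosin heavy chain, was at 9.31, 46.9 and 30.1 CPM in NGS vehicle, 8.83, 0 and 0.23 CPM in NGS ACSS2i and 76.8 CPM in C57BI6 ACSS2i 3, with at most 0.504 CPM in the other C57BI6 libraries. Without the 3 muscle-rich libraries the median was -0.61. Smtnl1 and Myog, muscle genes at 0 in NGS ACSS2i, had interaction bounds of at least 7.16 and 6.80 and rested on the same C57BI6 library, with 93 and 91 counts there. The histone gene Hist1h2ap, at 0 in NGS vehicle, had 410, 205 and 0 counts in NGS ACSS2i and a bound of at most -6.68. As NGS ACSS2i 3 was itself at 0, libraries of 1 group differed by more than counting error, which is all the bound covers. Ddb2, a DNA damage sensor at 0 in NGS ACSS2i, had a bound of at least 2.35.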

How the data were processed

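The authors deposited whole-number counts per gene for 14 libraries and 51789 genes with Ensembl identifiers. The build was mm10 and the tools were RSEM 1.2.3 and DESeq2, in roles that are not described, per the submitters' processing notes. The aligner, annotation and filters are not given in the sources used here, and RSEM estimates may have been rounded. Per the labels' protocols, RNA of pulverized tumour went into QuantSeq libraries. Symbols came from GENCODE M21, which matched 51596 genes.

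Counts were used as deposited. Genes kept by filterByExpr (17294) were scaled by TMM and tested in edgeR 4.0.16 (R 4.3.3) with the quasi-likelihood test in 1 model of the 4 groups, two-sided, adjusted by Benjamini-Hochberg over all tested genes at 0.05. The contrast was the C57BI6 effect minus the NGS effect. CPM is the count scaled to the TMM-adjusted total of the tested genes. Genes at 0 in an NGS group were given a floor of 3 counts per group. DESeq2 1.42.0 and limma 3.58.1 were alternatives, as were other scalings, filters, thinning of C57BI6 to 3.94 M counts, a replicate block and leaving out libraries. The fit was tested on simulated data. Equal replicate numbers correlated at -0.002 to 0.095 in NGS and -0.137 to 0.155 in C57BI6 (deviations from group means). Unequal numbers correlated at -0.124 to 0.081 in NGS and -0.268 to 0.349 in C57BI6. So few values cannot settle whether equal numbers are paired, and the labels do not say.

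The 34 gene lists were described by counts and medians, with no set test. Named were, by smallest p, up to 10 genes per direction past the threshold, expressed at a log2 CPM of at least 1 on average, predicted genes and pseudogenes left out, or the first 5 where fewer than 5 passed; Acss1, Acss2 and Acss3; up to 3 members per list; up to 10 genes called in both strains; and up to 10 at 0 in all NGS libraries and 3 at 0 in 1 NGS group. Not every gene these rules pick is reported, and some items are not reported here. Others (Amd1, Amd2, Isg15, Adm, Car9, Egln3, Ddit4, Ifi44, Ifit3, Gzmb, Cd3e and list members named only as at 0) were chosen after their values were seen. The question, lists and rules were chosen with earlier results of these data known.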

Additional observations from a re-analysis of the deposited data

Results flagged for a closer look

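In the edgeR interaction test 3 genes passed the threshold: Amd-ps3 (7.62), Pfn2 (2.07) and Serpinb1a (1.91), as log2 values. With the Amd copies summed, a step chosen after the values were seen, the Amd interaction was 0.21 and 0 genes passed. Limma voom also gave 0.

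Of 88 sets of 4 C57BI6 libraries examined, 9 held 1 library set apart from the other 3, where chance gives about 1 in 20. Among levels in CPM, Isg20 was at 49.6 in ACSS2i replicate 2 against 43.2 to 43.7, Ccnd2 at 1180 in vehicle replicate 2 against 1360 to 1390, and Acss3 at 1.45 in vehicle replicate 2 against 2.00 to 2.07. The olfactory receptor gene Olfr1152, at 0 in NGS, was at 45.9 in ACSS2i replicate 4 against 39.6 to 40.2. The immunoglobulin gene Ighg2b, also at 0 in NGS, was at 231 in ACSS2i replicate 2 against 9.5 to 26.

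Summed B and plasma cell genes were at 729.6 CPM in the same library against 184.9 to 203.9. Summed muscle genes were at 2875 CPM in vehicle replicate 1 against 752.5 to 1038, and at 6803 CPM in ACSS2i replicate 3 against 773.3 to 1253. Summed skin genes were at 21.39 CPM in vehicle replicate 1 against 24.93 to 25.38.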

How the results depend on the processing

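The 3 genes past the interaction threshold became 283 with the DESeq2 test, 0 with limma voom with library weights and 0 with strain weights, 7 without a filter, 0 with the Amd copies summed (added after the values were seen), and 1 to 62 when leaving out each library in turn. With the replicate block, for equal numbers that no label pairs, there were 4, with 2 in each direction: Amd-ps3 and Gm7206 positive, and Sept2 and Lrrc75b negative. Pfn2 and Serpinb1a did not pass there. The list members Acads, H2-K1, Cox7c, Slc25a4, Slc7a11, Pdia4, Ccl8, Ccl4 and Plac8 were among the 283 genes of the DESeq2 test. None of them was among the 3 genes of the edgeR interaction test. The 22 genes shared by the strains became 44 with library totals, 122 with the DESeq2 test, 13 and 1 with limma voom (library and strain weights), 49 without a filter, 5 with the replicate block, 2 without the 3 muscle-rich libraries, and 10 to 52 when leaving out each library in turn. Allowing up to 3 counts over the NGS libraries raised the 496 genes at 0 to 848. Leaving out 1 library leaves 2 NGS libraries in a group, and leaving out the muscle-rich ones leaves 1 NGS vehicle library, which is assumed to vary like the rest. The causes were not tested. The lower depth of NGS limits what can be measured there.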

Other observations

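Summed cytotoxic and natural killer genes were at 9.42 to 19.4 CPM in NGS vehicle and 51.3 to 75.3 CPM in NGS ACSS2i, although 13 of 24 members were at 0. Ccl5, a member of the list, alone stood at 14.6, 6.06 and 8.89 CPM in NGS vehicle and 44.9, 65.9 and 65.6 CPM in NGS ACSS2i. In C57BI6 the sum was 57.8 to 95.9 CPM in vehicle and 182 to 332 CPM in ACSS2i.

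Genes at 0 in NGS were not all immune genes. Hsd3b2, a steroid dehydrogenase, was at 35.5 to 55.3 CPM in C57BI6 vehicle and 37.2 to 45 CPM in C57BI6 ACSS2i, and the olfactory receptor gene Olfr552 at 12.8 to 17.3 and 10.2 to 14.3 CPM.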
